A study of Mus musculus with 6 samples.

Results

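The genes described here encode mitochondrial uncoupling proteins and proteins typical of brown fat: Ucp1, Ucp2, Ucp3, Cidea, Cox7a1 and Cox8b. They were chosen by name, as every probe set whose annotation gives exactly 1 gene and that gene is one of these 6. This gave 7 probe sets for 5 genes, of 12488 probe sets on the array. Ucp1 and Cox8b have 2 probe sets each. Ucp2 was not analysed here, because no probe set of the values used is annotated to it alone. The RNA came from adrenal glands of 2 mouse strains, with 3 Affymetrix MG_U74Av2 arrays of BPH, the hypertensive strain, and 3 of BPL, the hypotensive strain. BPH stands for blood pressure high and BPL for blood pressure low, and the arrays compare the adrenal RNA of a strain bred for high pressure with one bred for low pressure. The labels give no treatment, age, sex or number of animals per array. Nothing in them says that the arrays of a strain are separate animals, so the p-values measure the spread between these arrays, which may be technical.

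Brown fat burns fatty acids to make heat. Its mitochondria carry uncoupling protein 1, which lets protons return across the inner membrane without making ATP, so that the energy of the respiratory chain leaves as heat. Brown adipocytes also hold many small lipid droplets, which Cidea helps to fuse, and they build cytochrome c oxidase with the Cox7a1 and Cox8b isoforms that heart and skeletal muscle use as well. Ucp3 is found in brown fat and skeletal muscle, and Ucp2 in many tissues, including cells of the immune system. In adult mice, fat lies around the kidney and the adrenal gland and can hold brown adipocytes.

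Since these genes lay together on the low side in BPH, the 250 bases before the transcription start of 4 of them are printed here from RefSeq (GRCm38.p6). They are written from 5′ to 3′ along the gene, and capitals mark AGGTCA, the core site that many nuclear receptors of fat and energy metabolism bind.
Ucp1, chr8:83290098-83290347, plus strand: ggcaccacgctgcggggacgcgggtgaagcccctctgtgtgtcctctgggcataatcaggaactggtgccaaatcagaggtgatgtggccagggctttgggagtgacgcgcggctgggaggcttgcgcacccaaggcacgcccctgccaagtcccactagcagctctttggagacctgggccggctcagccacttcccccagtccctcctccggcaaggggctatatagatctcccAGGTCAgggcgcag
Ucp3, chr7:100472741-100472990, plus strand: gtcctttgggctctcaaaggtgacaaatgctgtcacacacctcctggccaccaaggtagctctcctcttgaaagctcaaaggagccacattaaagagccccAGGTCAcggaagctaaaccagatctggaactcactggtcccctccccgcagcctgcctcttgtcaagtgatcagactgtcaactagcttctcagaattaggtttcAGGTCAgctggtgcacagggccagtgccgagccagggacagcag
Cox7a1, chr7:30183921-30184170, plus strand: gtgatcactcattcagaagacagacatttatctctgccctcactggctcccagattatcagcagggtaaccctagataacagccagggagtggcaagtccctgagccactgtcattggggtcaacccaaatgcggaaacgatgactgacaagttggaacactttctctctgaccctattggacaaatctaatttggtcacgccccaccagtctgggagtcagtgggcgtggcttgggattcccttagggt
Cox8b, chr7:140900447-140900696, minus strand: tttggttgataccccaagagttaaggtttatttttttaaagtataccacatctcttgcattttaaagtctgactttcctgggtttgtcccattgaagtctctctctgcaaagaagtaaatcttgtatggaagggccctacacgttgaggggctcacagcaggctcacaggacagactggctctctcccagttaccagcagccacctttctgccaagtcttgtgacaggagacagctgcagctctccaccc

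Both strands of each window were searched for TGACGTCA, the cyclic AMP response element, for AGGTCA, for TCAAGGTCA, an extended core site, for TTGCNNAA, a C/EBP site, and for AGGTCA repeated after 1 further base, the site of peroxisome proliferator-activated receptors. The extended and the repeated site contain AGGTCA, so a window with either would count under that motif as well. AGGTCA was found once in the Ucp1 window, 14 to 9 bases before the start. It was found at 2 places in the Ucp3 window, 149 to 144 and 44 to 39 bases before it. No searched motif was found in the Cox7a1 and Cox8b windows. Among 32851 promoter windows of the same length, 14.0% held AGGTCA, 1.55% TGACGTCA, 9.56% TTGCNNAA, 0.387% TCAAGGTCA and 0.0335% the repeat. These matches are of letters only, and no binding was measured.

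All 7 probe sets read lower in BPH than in BPL adrenals, and on each of them the 3 BPH arrays lay below the 3 BPL arrays. Ucp1 and Ucp3 passed the test, while Cidea, Cox7a1 and Cox8b did not. Log2 differences, BPH minus BPL, ran from -2.68 for Ucp1 to -1.13 for a Cox8b probe set, with a median of -1.64 over the 7, against 0.03 over all 7293 tested probe sets. Tests used limma on log2 intensities, and called means a p under 0.05 after Benjamini-Hochberg adjustment over all 7293. All 7 passed the filter on low signal, and none had an array under the floor. Of the 7, 3 were called, all lower in BPH, where 0.96% of all tested probe sets were called lower and 2.52% called in either direction. All 7 had an unadjusted p under 0.05, as had 8.5% of all tested probe sets on the lower side. A complete separation with BPH below BPL was found for 11.6% of all tested probe sets. The plot of intensities by strain shows every array.

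**Figure D1:**
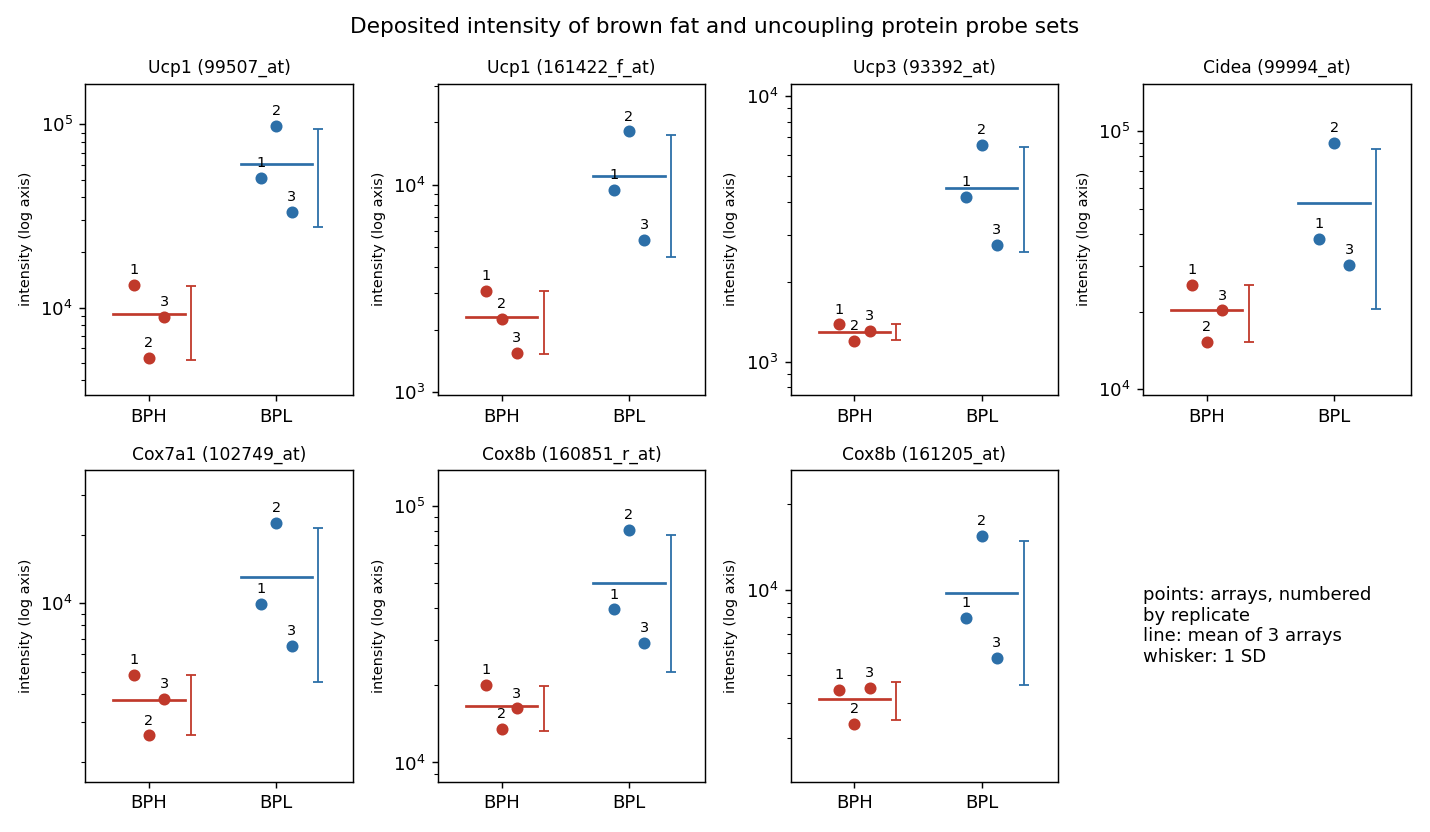
Intensity of each of the 7 probe sets (vertical log axis, deposited linear units) on the 3 BPH arrays (left, red) and the 3 BPL arrays (right, blue), with replicate numbers beside the points, the mean as a line and 1 SD as a whisker. The 3 BPH arrays sit below the 3 BPL arrays in all 7 panels, and BPL 2 is the highest array in each.

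Ucp1 was the gene of this set that differed most. Its brighter probe set, 99507_at, had intensities of 13301, 5336 and 8870 on BPH 1, 2 and 3, against 51083, 98187 and 33362 on BPL 1, 2 and 3. The lowest BPL array read 2.51 times the highest BPH array. The means were 9169 ± 3991 in BPH and 60877 ± 33504 in BPL (SD, n = 3 each). The log2 difference of -2.68 (SE 0.41, limma adjusted p = 0.0137) puts BPH at 15.6% of the BPL level. By this difference it ranked 2 among the 7293, counted from the lowest. The second Ucp1 probe set, 161422_f_at, whose suffix marks probes shared with a sequence family, gave the same direction. It had 3079, 2254 and 1552 on the BPH arrays and 9458, 18095 and 5411 on the BPL arrays, a log2 difference of -2.14 (SE 0.40, limma adjusted p = 0.0319). Within a strain both probe sets varied by 1.98 to 3.34 times between the highest and the lowest array, so the spread inside each strain was wide as well.

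Ucp3, the uncoupling protein known from muscle and brown fat, was nearly level within BPH. It had 1381, 1200 and 1310 on the BPH arrays, a 1.15-fold range, against 4182, 6539 and 2754 on the BPL arrays. The log2 difference was -1.71 (SE 0.28, limma adjusted p = 0.0178), which puts BPH at 30.7% of BPL. Ucp2, which neighbours Ucp3 on mouse chromosome 7, has no value here.

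Cidea, the droplet protein, was bright in both strains and had the narrowest gap between them. It had 25384, 15199 and 20197 on the BPH arrays and 38222, 89974 and 30291 on the BPL arrays. The lowest BPL array, BPL 3, was 1.19 times the highest BPH array, BPH 1. The log2 difference of -1.25 (SE 0.37, limma adjusted p = 0.110) did not pass. Of its relatives, Cidec, a droplet protein of white and brown fat, had 6889, 4665 and 7033 in BPH and 7493, 13983 and 6602 in BPL, a log2 difference of -0.54 (SE 0.28, limma adjusted p = 0.330), and the strains overlapped. Cideb, known from liver, lay under the floor on all 6 arrays.

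The muscle and heart type subunits of cytochrome c oxidase, the last complex of the respiratory chain, read lower in BPH without passing the test. Cox7a1 had 4831, 2617 and 3794 on the BPH arrays and 9980, 22709 and 6469 on the BPL arrays, a log2 difference of -1.64 (SE 0.41, limma adjusted p = 0.0752). The brighter Cox8b probe set, 160851_r_at, had 20009, 13470 and 16246 in BPH and 39461, 80742 and 29310 in BPL, with a difference of -1.47 (SE 0.33, limma adjusted p = 0.0564). The other, 161205_at, had 4437, 3379 and 4526 in BPH and 7983, 15510 and 5763 in BPL, with a difference of -1.13 (SE 0.31, limma adjusted p = 0.0947). Cox7a2, the form of subunit 7a found in most tissues, had 28489, 25695 and 25695 in BPH and 31500, 46795 and 30342 in BPL, a log2 difference of -0.42 (SE 0.17, limma adjusted p = 0.234). Cox8a, the widespread form of subunit 8, was under the floor on 4 of 6 arrays and was not tested.

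The 7 probe sets ordered the arrays almost alike. BPL 2 was the highest array on all 7, followed by BPL 1 and BPL 3. On 5 of them the BPH arrays followed in the order BPH 1, BPH 3, BPH 2. The exceptions were Ucp1 161422_f_at and Cox8b 161205_at, which differed in the order of the BPH arrays. BPL 2 read 2.37 to 3.51 times the level of BPL 3 across the 7.

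By likeness to Ucp1 over the 6 arrays (Pearson r of log2 intensity with 99507_at, a description that includes the strain difference), the 10 nearest genes outside the set had r from 0.988 to 0.995. They were Tkt, Itpr2, Apoc1, Txnip, Dnajc15, Sdhc, Psg19, Hadh, Slc4a4 and Hadhb. Tkt is transketolase of the pentose phosphate path, Sdhc a subunit of respiratory complex II, and Hadh and Hadhb are enzymes of fatty acid oxidation. The size of their strain difference varied, from -2.07 for Slc4a4, a bicarbonate transporter, to -0.22 for Itpr2, a calcium channel of the endoplasmic reticulum. Ucp3 reached 0.977, Cox8b 0.976, Cox7a1 0.971 and Cidea 0.947 on the same measure. With the strain means removed, r with Ucp1 was 0.968 for Cox7a1, 0.948 for Cidea, 0.938 for Cox8b and 0.855 for Ucp3. For the 10 genes outside the set it ran from 0.94 (Psg19) to 0.986 (Itpr2), so such likeness was not particular to the set. These 6 arrays share 2 strains, so r has few independent points behind it.

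Other genes of the thermogenic programme lay mostly on the same side, and few passed the test. Of 49 listed genes 32 are on the array and 19 were tested, 16 with a negative difference, against 45.2% of all genes. Their median was -0.81, or -0.54 without BPL 2 and -0.63 without BPL 2 and BPH 1. Called were 2 lower and 1 higher in BPH, where 0.9% of 5555 genes were called lower and 1.53% higher. Gpd2, the mitochondrial glycerol phosphate dehydrogenase that is abundant in brown fat, had 4091, 2988 and 3517 in BPH and 11666, 25526 and 8117 in BPL, a difference of -1.94 (SE 0.35, limma adjusted p = 0.0286). Acsl5, which activates fatty acids, had 3260, 3281 and 3007 in BPH and 6383, 10419 and 4956 in BPL, a difference of -1.12 (SE 0.24, limma adjusted p = 0.0479). Cebpb, a transcription factor of early adipocyte development, was higher, with 21492, 22562 and 24496 in BPH and 13943, 17008 and 14044 in BPL, a difference of 0.61 (SE 0.13, limma adjusted p = 0.0422). Both called decreases and the called increase were without overlap between the strains, as were 26.5% of all tested probe sets in either direction.

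Other thermogenic genes did not pass or were too dim to test. Cpt2, the inner carnitine palmitoyltransferase, had a difference of -0.87 (limma adjusted p = 0.0539). Of the transcription factors, Pparg had a difference of -0.91 (limma adjusted p = 0.171), Ppara of -0.85 and Ebf2, which marks brown fat precursors, of -0.71. Cpt2, Pparg, Ppara and Ebf2 were without overlap between the strains. On the other side, Bmp7, a growth factor that promotes brown fat development, had 2352, 2758 and 2116 in BPH and 964, 1337 and 1806 in BPL, a difference of 0.85 without overlap (limma adjusted p = 0.0984). Nrip1, a nuclear receptor corepressor, had a difference of 0.23, also without overlap (limma adjusted p = 0.368). Dio2, which makes active thyroid hormone in brown fat, had 719, 428 and 707 in BPH and 1534, 683 and 896 in BPL, with overlap between the strains. Ppargc1a, the coactivator that drives mitochondrial genes in the cold, was below the filter, with 234, 101 and 324 in BPH and 395, 690 and 317 in BPL. Elovl3, a fatty acid elongase induced in brown fat, was below it too, with 107, 82.3 and 37.9 in BPH and 143, 785 and 453 in BPL. Zic1 and Lhx8, developmental markers of classical brown fat, were each under the floor on 5 of 6 arrays. Pparg, Ppara, Ebf2, Bmp7, Nrip1, Dio2, Ppargc1a, Elovl3, Zic1 and Lhx8 were chosen after their values were seen.

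Of the adipocyte genes shared by white and brown fat, 8 were called lower in BPH, where 0.9% of all genes were called lower. Of 34 listed genes 27 are on the array and all of these were tested, 22 with a negative difference and a median of -0.54, and 0 were called higher in limma. This median rested on BPL 2 in part: it was -0.22 without BPL 2 and -0.18 without BPL 2 and BPH 1. An unadjusted p under 0.05 was found for 13 of the 27, against 19.3% of all genes. The smallest p-values were those of the fatty acid synthase gene Fasn (-2.16, limma adjusted p = 0.00605), the acute phase gene Orm1 (-1.69, limma adjusted p = 0.0306), the apolipoprotein gene Apoc1 (-1.71, limma adjusted p = 0.0308) and the glycerol phosphate dehydrogenase gene Gpd1 (-1.91, limma adjusted p = 0.0319). The other 4 called lower were Elovl6 (-1.68), Thrsp (-1.43), Lipe (-1.25) and Angptl4, a secreted inhibitor of lipoprotein lipase (-0.65, limma adjusted p = 0.0388). These calls are of the brightest probe set of each gene. A dimmer Gpd1 probe set had a smaller difference of -0.83 (SE 0.39, limma adjusted p = 0.288) and was not called. A dimmer Angptl4 probe set, at -0.53 (limma adjusted p = 0.19), was not called either. Adipoq, which encodes the fat cell hormone adiponectin, had 61584, 52344 and 56203 in BPH and 56692, 83596 and 45742 in BPL. Its log2 difference was -0.09 (SE 0.21, limma adjusted p = 0.856), with the largest p of the 27, and the strains overlapped. Scd1 had a difference of -1.24 (SE 0.27, limma adjusted p = 0.0502) without overlap and was not called. Lep, the leptin gene, had a difference of -0.13 (SE 0.23) and Lpl, lipoprotein lipase, of -0.21 (SE 0.22), both with overlap. Retn, the resistin gene, had 14161, 9272 and 11518 in BPH and 7348, 8880 and 6908 in BPL, a difference of 0.58 (SE 0.17, limma adjusted p = 0.112). Car3, a carbonic anhydrase abundant in fat, had a difference of 0.42 (SE 0.15, limma adjusted p = 0.183). Elovl6, Thrsp, Lipe, Angptl4, Adipoq, Scd1, Lep, Lpl, Retn and Car3 were chosen after their values were seen.

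**Figure D2:**
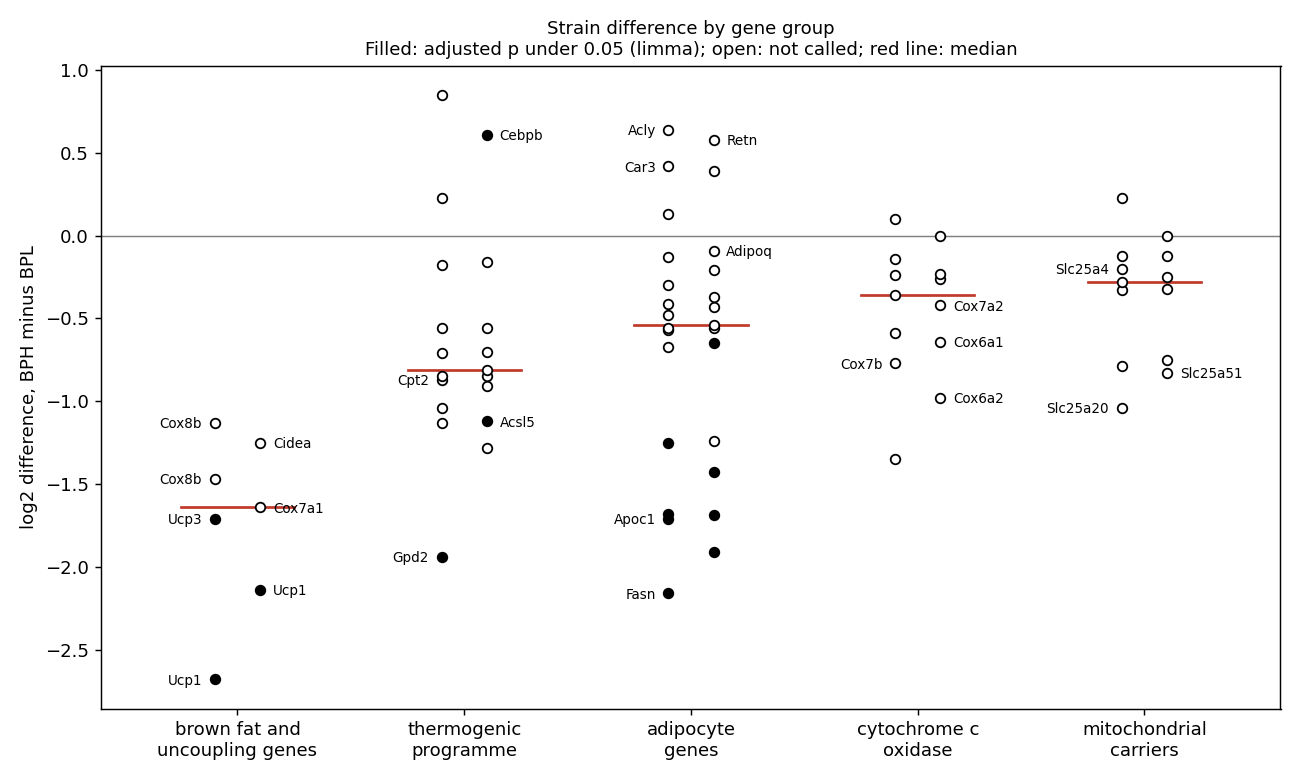
Log2 difference, BPH minus BPL (vertical axis), of the 7 brown fat and uncoupling probe sets and of the tested genes of 4 lists, 1 point each, filled where called and with the median as a red line. The 7 lie between -2.68 and -1.13, the thermogenic list has a median of -0.81 and the adipocyte list of -0.54, with Adipoq at -0.09.

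To set these genes against a partner on the same array, the log2 ratio of each pair was centred on its mean and compared between strains by a two-sided exact permutation test. With 3 arrays per strain the smallest p it allows is 0.1, so no pair could pass. The Ucp1 to Adipoq ratio was -0.79, -1.87 and -1.24 on the BPH arrays and 1.27, 1.66 and 0.97 on the BPL arrays, a difference of -2.60 without overlap (exact p = 0.1). The differences were -1.16 for Cidea to Adipoq, -0.71 for Cidea to Cidec, -1.23 for Cox7a1 to Cox7a2 and -1.51 for Ucp3 to Slc25a4. All 5 pairs gave exact p = 0.1 and 0.1 after adjustment over the 5, with BPH below BPL on every array. The pairs were chosen after the values were seen, and a ratio shows unequal change of the 2 genes, not which one changed.

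No tested cytochrome c oxidase gene was called, in the set or outside it, and no tested mitochondrial carrier outside the set was called. Of 21 listed oxidase genes outside the set 15 are on the array and 13 were tested. Of these 12 lay below 0, with a median of -0.36, which was -0.19 without BPL 2. In limma 0 were called, and 6 had an unadjusted p under 0.05, where 19.3% of all genes had one in either direction. Those with the smallest p were Cox6b2 (-1.35), Cox7b (-0.77), Cox6a1 (-0.64) and Cox5b (-0.59), at limma adjusted p from 0.0665 to 0.167. Of 26 listed carriers, proteins of the family that holds the uncoupling proteins, 15 are on the array and 13 were tested. Of these 12 lay below 0, with a median of -0.28. In limma 0 were called, and 4 of the 13 had an unadjusted p under 0.05, against the same 19.3% of all genes. Slc25a20, which brings acylcarnitines into mitochondria, had a difference of -1.04 (limma adjusted p = 0.0722), Slc25a51 of -0.83, Mtch2 of -0.75 and the citrate carrier Slc25a1 of -0.79. The adenine nucleotide carriers Slc25a4 (-0.20) and Slc25a5 (-0.33) overlapped between the strains. A dimmer Slc25a5 probe set lay on the other side, at 0.19 (SE 0.23, limma adjusted p = 0.685). Dimmer probe sets of Slc25a51 (-0.56) and Slc25a1 (-1.18) were lower in BPH and not called.

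The arrays also differed in transcripts of other cells. Adrenal cortex markers were bright on all 6, with summed intensities of 696501 to 811308 in BPH and 692416 to 758142 in BPL over 11 of 14 listed genes. Adrenal medulla markers summed to 261211 to 320782 in BPH and 144129 to 287726 in BPL over 12 of 15 genes, and the lowest sum was on BPL 2, the array highest in Ucp1. All 11 tested medulla genes lay above 0, where 45.2% of all genes had a negative difference. Their median was 0.61, or 0.32 without BPL 2. Of these 11 genes 5 had an unadjusted p under 0.05 in limma, against 19.3% of all genes in either direction. The enkephalin precursor Penk was the 1 called higher (0.61, limma adjusted p = 0.0472), where 1.53% of all genes were called higher. A dimmer Penk probe set had a difference of 0.65 (SE 0.38, limma adjusted p = 0.377) and was not called. Scg2, a secretory granule protein (1.19), and Pnmt, which makes adrenaline (0.98), did not overlap between the strains and were not called. Of all tested probe sets, 26.5% were without overlap in either direction. The part of this opposite shift of the medulla genes in the brown fat values was not tested. Summed levels over 27 of 34 adipocyte genes were 486105 to 563326 in BPH and 598009 to 1113654 in BPL, so fat transcripts were present on every array. Such sums weigh bright genes most. Scd1 alone had 63172 to 65732 in BPH and 104728 to 244099 in BPL, while Adipoq overlapped between the strains. The labels do not say how the glands were trimmed, and the part of adherent fat in the strain difference was not tested. In bulk RNA, fewer cells of a type and less RNA per cell cannot be told apart. Macrophage and lymphocyte markers (35959 to 38182 in BPH, 34568 to 40932 in BPL, over 22 of 24 genes) and endothelial markers (37860 to 39897 in BPH, 38045 to 40751 in BPL, over 10 of 14) overlapped between the strains. Kidney markers summed to 5086 to 5416 in BPH and 5686 to 8958 in BPL over 12 of 14 genes, with Umod and Miox under the floor on all 6 arrays.

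Ucp3, Cox7a1 and Cox8b are also known from skeletal muscle, whose transcripts varied between the arrays. Muscle markers summed over 22 of 28 genes to 218697, 41304 and 23435 on BPH 1, 2 and 3 and to 24092, 238486 and 28720 on BPL 1, 2 and 3, with Myh2 under the floor throughout. BPH 1 and BPL 2 thus stood apart, 1 array in each strain. Acta1, skeletal muscle actin, had 41852, 5529 and 1549 in BPH and 321, 62862 and 1833 in BPL. Cox6a2, the muscle form of another oxidase subunit, followed that pattern, with 3870, 260 and 272 in BPH and 372, 15753 and 357 in BPL. BPL 2 was also the top array of all 7 brown fat and uncoupling probe sets, and BPH 1 the top BPH array of 6. The part of muscle RNA in the strain difference was not tested. Without BPH 1 and BPL 2, left out after the data were seen, all 7 differences stayed negative, from -2.59 for Ucp1 to -0.79 for Cox8b 161205_at. Then 5 of the 7 were called, with 0.658% of tested probe sets called lower, and these were both Ucp1 probe sets, Ucp3 (-1.44), Cidea (-0.96, limma adjusted p = 0.0490) and Cox8b 160851_r_at (-1.20), while Cox7a1 was at -1.35 (limma adjusted p = 0.0512).

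**Figure D3:**
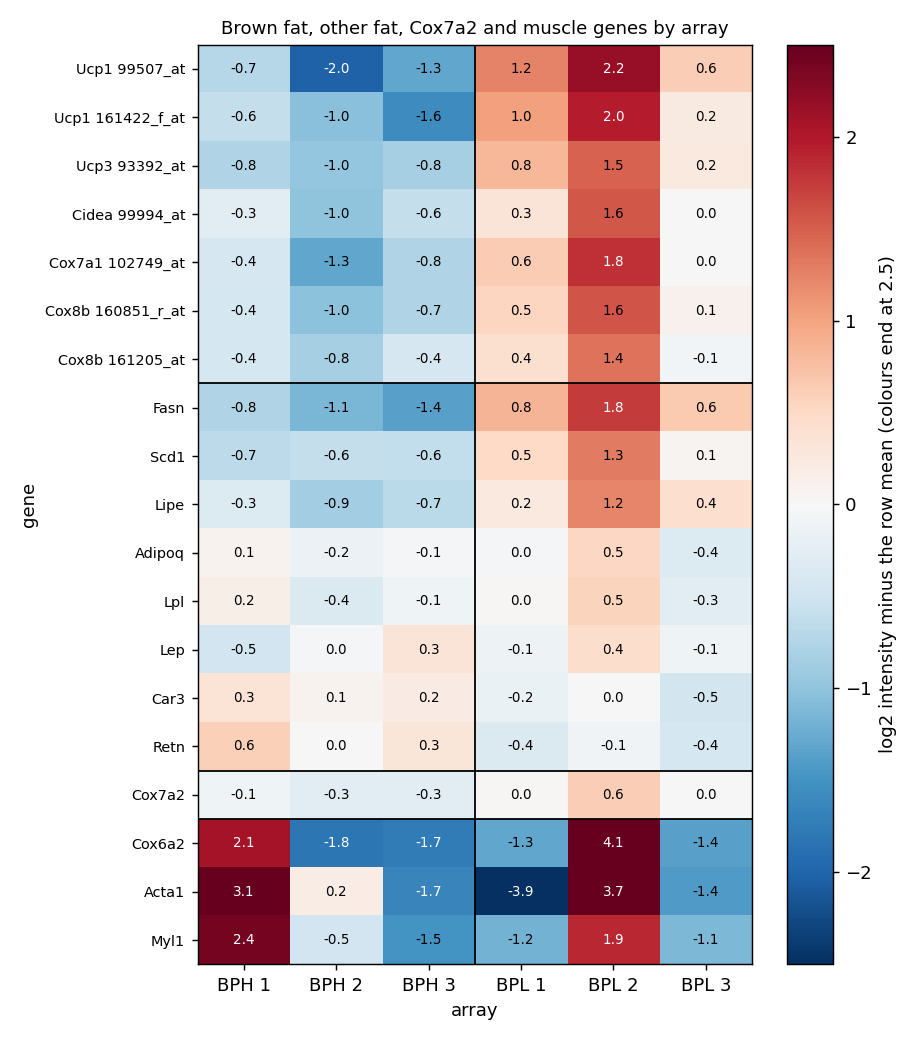
Log2 intensity minus the row mean (colour and printed value) of the 7 brown fat and uncoupling probe sets, other fat genes, Cox7a2 and muscle genes (rows) on the 3 BPH and 3 BPL arrays (columns). The first 7 rows are negative on all BPH arrays and highest on BPL 2, and so are the fat genes Fasn, Scd1 and Lipe. The rows from Adipoq to Retn, chosen after their values were seen, stay within 0.6 of their mean. Cox6a2, Acta1 and Myl1 are high on BPH 1 and BPL 2.

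The calls changed when single arrays were left out and when the fluidics station that stained the arrays entered the fit. No fluidics run held both strains: BPH 1 and BPH 2 were in run 1, BPH 3 in run 2 and all BPL arrays in run 3. All BPL arrays were also scanned before the BPH arrays. Run and scan order therefore cannot be told apart from the strain. BPH 1 and BPH 2 were stained on station 2 and BPH 3 and all BPL arrays on station 1. Station 2 held BPH arrays only, so a fit by station compares fewer arrays between strains. A station effect cannot be told apart from that loss. Within station 1 a single BPH array, from another run, thus stands against 3 BPL arrays. There the differences were -2.64 for Ucp1 99507_at, -1.69 for Ucp3, -1.22 for Cidea, -1.58 for Cox7a1 and -1.48 for Cox8b 160851_r_at, and the fit with the station as a block gave the same values. In both fits all 7 were negative, 5 had an unadjusted p under 0.05 and 0 were called in limma (lowest adjusted p of 0.169 with the block and 0.224 within station 1), with 0.11% and 0.0411% of tested probe sets called lower. Leaving out 1 array at a time left all 7 negative. The number called was 1 of 7 without BPH 1 or without BPL 1 and 0 without BPH 2 or BPH 3, with all 7 at an unadjusted p under 0.05 each time. It was 4 without BPL 2, the highest array, and 7 without BPL 3, the lowest BPL array. Over all tested probe sets, the share called lower was 0.329% when BPH 1 was left out, 0.178% for BPH 2 and 0.219% for BPH 3. It was 0.384% when BPL 1 was left out, 0.795% for BPL 2 and 2.18% for BPL 3. Other choices moved the number as well: 1 of the 7 was called without the intensity trend in the variance (0.329% of all called lower), 0 with no filter on low signal (0.161%) and 0 at an adjusted p under 0.01 (0.192%). The fluidics run as a random block gave 7 (8.38%), but with no run holding both strains this fit cannot adjust for the run.

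**Figure D4:**
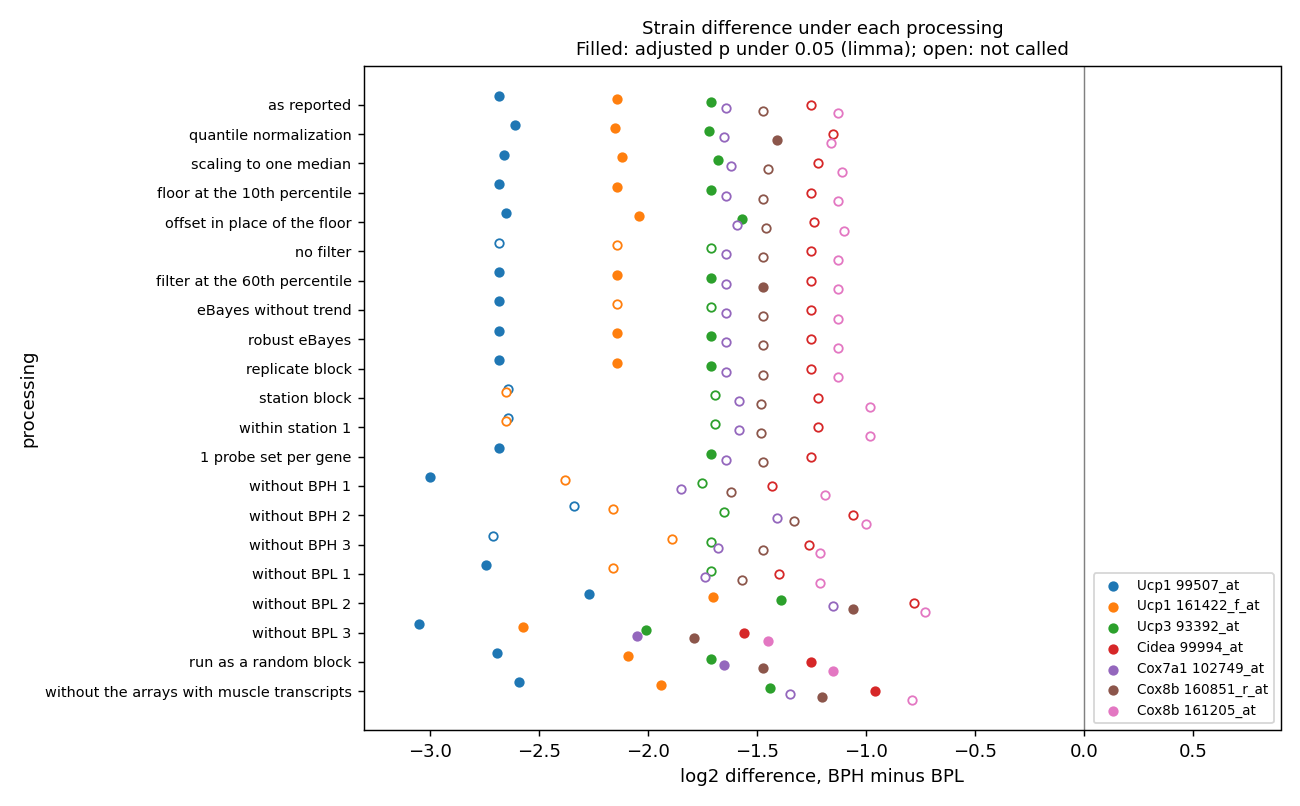
Log2 difference, BPH minus BPL (horizontal axis), of the 7 probe sets under the reported processing and each alternative (rows), filled where the adjusted p is under 0.05. All points lie below 0, between -3.05 and -0.73, while the filled points come and go with the arrays kept and the variance model.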

How the data were processed

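Adrenal RNA of 3 BPH and 3 BPL arrays (Affymetrix MG_U74Av2, per the file headers) was measured. The authors' deposited values are linear intensities, 1 per probe set and array, and the software behind them was not given in the sources used here. Means after trimming 2% at each end were 2499.5 to 2499.6 on all arrays, so no scaling was added. The deposited run files hold other fields only, of which the fluidics station, the hybridization date and the scan date were used. Arrays with the same station and hybridization date were taken as a fluidics run. Values under the 20th percentile (201.3) were set to it and taken to log2, which understates changes of dim genes. Control probe sets (66) and those with a mean log2 intensity under the 40th percentile of the table (668.1) were left out. The remaining 7293 were fitted with limma 3.58.1 (lmFit, eBayes with trend, R 4.3.3), two-sided. The code was tested on simulated data. The number of arrays limits the precision, and depth has no meaning here. Gene names came from the platform annotation (1 gene for 10855 probe sets, several for 396, none for 1237), and 10839 were matched to RefSeq GRCm38.p6 symbols. A listed gene is given by its brightest tested probe set. Named are the set itself, up to 4 genes with the smallest p per described pathway list, isoform partners, the 10 nearest profiles to Ucp1, and genes marked as chosen later. The genes, lists and tests were chosen with earlier results of these data known. Alternatives covered normalization, floor, filter, variance model, replicate and station blocks, 1 probe set per gene, thresholds and leaving out arrays.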

Additional observations from a re-analysis of the deposited data

How the results depend on the processing

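All 7 differences stayed negative under every alternative run, and their median stayed between -2.01 and -1.15 against -1.64 as reported. Counts moved more. The count of called probe sets (184) was 52 with no filter on low signal, 83 without the intensity trend, 18 with a station block, 7 using station 1 alone, 48 at an adjusted p under 0.01, and 42 to 361 with 1 array left out. Of the brown fat and uncoupling probe sets 3 were called as reported. The number was 0 with no filter (all 7 at an unadjusted p under 0.05 in limma), 1 without the trend, 0 with a station block and 0 using station 1 alone (5 at an unadjusted p under 0.05 in each), 0 at an adjusted p under 0.01, 5 without BPH 1 and BPL 2, and 0 to 7 with 1 array left out. Of the 71 genes of the pathway lists, 11 were called as reported, 6 after scaling to one median, 0 with no filter (25 at an unadjusted p under 0.05), 1 without the trend, 0 with a station block (20) and 0 using station 1 alone (18), 1 at an adjusted p under 0.01, and 1 to 22 with 1 array left out. No fluidics run held both strains, so a block for the run cannot separate the run from the strain. With the run as a random block, added after the data were seen, the estimated correlation was -0.299. A correlation below 0 narrows the error of the strain difference. That fit called 1377 probe sets, 7 of the 7 and 37 of the 71. The cause was not tested. Same-numbered arrays did not deviate together (r of -0.219, -0.084 and 0.012). With 3 arrays per strain these values cannot settle whether the numbers pair the arrays. With the replicate block 124 probe sets, 3 of the 7 and 8 of the 71 were called. Leaving out BPH 1 and BPL 2 was also chosen after the data were seen. With the filter at the 60th percentile no kidney marker was left to give a median. Values near the floor limit what can be said of Ppargc1a, Elovl3, Zic1, Lhx8, Cideb and Cox8a.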
